A study of Mus musculus with 39 samples.

Results

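The RNAs encoding peroxisomal proteins were followed across sucrose gradients of mouse liver. The set held every gene whose symbol was Pex followed by a number, together with a list of named peroxisomal enzymes and transporters, and its members were picked by name, with earlier results of these data known. Of 13230 genes present in the deposited tables of both gradients, 44 belonged to it. They were 16 peroxins and 28 listed enzymes and transporters. Of 40 listed genes, 39 had a row in both tables, 5 more peroxins were added by the symbol pattern, and Dao was not analysed here. By the place of the encoded protein, 11 were membrane peroxins, 5 were soluble peroxins, 5 were transporters or channels of the peroxisomal membrane and 23 were matrix enzymes.

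Livers came from 2 wild-type female FVB mice, an inbred strain, with no treatment or transgene, and the ages were not given in the sources used here. A homogenate without detergent and depleted of nuclei was spun through 10 to 50% sucrose. RNA was sequenced after removal of ribosomal RNA in 17 fractions of gradient 1 (numbers 4 to 19 and 21) and 22 fractions of gradient 2 (numbers 3 to 24), which makes 39 libraries. There was no other condition, so the comparison implied by the design was between positions in the gradient, with the gradient as the replicate (n = 2).

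Peroxisomes are organelles bounded by a single membrane that break down very long chain and branched fatty acids, make bile acids and detoxify hydrogen peroxide, and they are abundant in hepatocytes. Their matrix enzymes are made on free ribosomes in the cytosol and imported already folded. The receptor Pex5 recognises a signal at the very end of the enzyme, termed PTS1, and Pex7 recognises a signal near its start, termed PTS2. The loaded receptors dock at Pex13 and Pex14 in the membrane. Ligases that include Pex2 and Pex10 then ubiquitinate the receptor, and an ATPase complex with Pex6, anchored by Pex26, pulls it back out. Membrane proteins follow another route, through the carrier Pex19 and its membrane partners Pex3 and Pex16, and Pex11a and Pex11g belong to a family that elongates and divides the organelle.

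The import signals are shown first, because the membrane and matrix classes compared below differ in them. A PTS1 at the end of the coding sequence (a codon for serine, alanine or cysteine, then for lysine, arginine or histidine, then for leucine or methionine, directly before the stop) was found in 10 of the 23 matrix enzymes and in 0 of the other 21 members. The same pattern ended 0.629% of the coding sequences of the 10817 tested genes that had one. A PTS2 consensus of 9 codons within the first 40 codons was found in 3 matrix enzymes, against 0.176% of the same genes. The other 10 matrix enzymes matched neither strict pattern. The sequences are those of the C57BL/6J reference (GENCODE M21, GRCm38, which is mm10), were not read from the FVB mice, and each lies in 1 coding exon. Coding ends run to the stop codon, with the last 3 codons before it in capitals. The first 3 below matched the PTS1 pattern, and the next 3 did not.
Ehhadh, chr16:21762084-21762113, minus strand: ttggcaggaccccatagcAGCAAACTGtga
Pecr, chr1:72259348-72259377, minus strand: gaatcttttaagaagaaaGCCAAGCTCtaa
Uox, chr3:146630578-146630607, plus strand: gtcaagaggaagctgcctTCCAGGCTGtga
Cat, chr2:103454756-103454785, minus strand: atggctgcgaagggaaaaGCTAACCTGtaa
Hao1, chr2:134498257-134498286, minus strand: aaaaatcctttggctgttTCCAAGATCtga
Agxt, chr1:93145138-93145167, plus strand: ctgcagcattgtcctaagAACAAGTTGtga

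The PTS2 stretches begin at codon 3 of the thiolases Acaa1a and Acaa1b and at codon 9 of Phyh, and are printed whole in capitals, since every codon belongs to the pattern.
Acaa1a, chr9:119341521-119341547, plus strand: CGGCTGCAGGTAGTGCTGGGCCACCTG
Acaa1b, chr9:119156962-119156988, minus strand: CGGCTGCAGGTAGTGCTGGGTCACCTG
Phyh, chr2:4919094-4919120, plus strand: CGGCTGCAGGTCCTTCTGGGACACCTC
The coding sequences of Acaa1a and Acaa1b are 96.5% identical over 1275 bases, so the division of reads between them, and each of their levels, is uncertain.

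Values are TPM, a length-normalized abundance scaled to the same sum in each library, which give an RNA's share of the RNA in its own fraction and not the amount of RNA in that fraction. The number of reads behind a value is unknown. For tests, fractions 4 to 7, 10 to 13 and 16 to 19 were taken as the light, middle and dense zones, with 4 libraries per zone and gradient, and log2(TPM + 1) was averaged within zone and gradient. Neighboring fractions of a gradient are not replicates, so each standard error (SE) and each adjusted p (limma, Benjamini-Hochberg over 11754 genes with a mean of at least 1 TPM) rests on 2 gradients. A change is called at an adjusted p under 0.05, and all 44 members passed the filter on low values. Changes are differences on the log2(TPM + 1) scale.

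The 50 most abundant genes took 29.9 to 50.9% of TPM in light, 27.4 to 32.2% in middle and 31.1 to 39.0% in dense libraries, and the median change of all tested genes from the light to the dense zone was -0.43. After quantile normalization this median was -0.03, and rises made up 51.0% rather than 36.0% of the called genes. From the middle to the dense zone the median of all genes went from -0.28 to 0.04 and the share of rises among called genes from 17.5 to 43.1%. Hepatocyte markers (8 of 8 in the tables) summed to 21935 to 50937 TPM in light, 11328 to 19645 TPM in middle and 17835 to 37777 TPM in dense libraries, and no marker of the list was at 0 throughout a zone, while 3 were called higher and 3 lower in the dense than in the light zone. Where 39.6% of all tested genes were lower in the dense than in the light zone, so were markers of other liver cells: 5 of 7 tested for Kupffer cells (139.8 to 197 summed TPM in light and 57.8 to 82.7 in dense libraries), 5 of 6 for sinusoidal endothelium (52.1 to 104 and 30.5 to 46.6), 4 of 5 for stellate cells (33.1 to 81.2 and 9.74 to 21.5) and 2 of 3 for red cells (258 to 496 and 66.4 to 106). Cholangiocyte markers summed to at most 6.78 TPM in any of these libraries, and 0 of 2 tested were called. Their part in the results on peroxisomal RNAs was not tested. For levels in whole liver, fewer cells of a type and less RNA per cell cannot be told apart, while the zones of a gradient came from the same homogenate.

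Together the 44 RNAs made up a growing share of the RNA toward the bottom of the gradient. They held 0.759 to 1.04% of TPM in the light zone of gradient 1, 1.78 to 2.63% in its middle zone and 3.72 to 3.87% in its dense zone. In gradient 2 the shares were 0.827 to 0.999%, 1.68 to 2.45% and 3.10 to 3.39%. The zones did not overlap in either gradient. Most of this came from the matrix enzymes, whose summed TPM was 6016 to 8493 in the light zone and 35040.4 to 36304 in the dense zone of gradient 1, and 6774 to 8538 and 28746 to 31679.9 in gradient 2. The 16 peroxins summed to 538 to 1025 TPM in the light, 1414 to 1522 in the middle and 1356 to 1619.7 in the dense zone of gradient 1. In gradient 2 they were highest in the middle zone (1162 to 1221 TPM, against 454 to 829.9 in the light and 993 to 1158 in the dense zone).

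From the light to the dense zone, 27 of the 44 RNAs rose, 2 fell and 15 were not called, where 22.3% of all tested genes rose and 39.6% fell. The median change of the members was 1.48. By class, 19 of 23 matrix enzymes rose and 0 fell (median 2.17), 4 of 11 membrane peroxins rose and 2 fell (median 0.35), 3 of 5 soluble peroxins rose and 0 fell (median 0.84), and 1 of 5 transporters and channels rose and 0 fell (median 0.02, and -0.02 after quantile normalization). With the gradient as a block, 33 members rose and 5 fell, where 30.5% of all tested genes rose and 50.0% fell. All 23 matrix enzymes were then among those that rose, with 2 of the transporters and channels, and 1 of the latter and 4 peroxins were among those that fell. In 27 members all 8 dense libraries were above all 8 light ones, as in 16.9% of tested genes, and in 1 member (Pex2) all were below, as in 28.9%. Middle libraries were all above light ones in 24 members and all below in 1 (17.6 and 16.1% of tested genes), and dense libraries were all above middle ones in 12 and all below in 3 (5.45 and 19.3%).

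**Figure D1:**
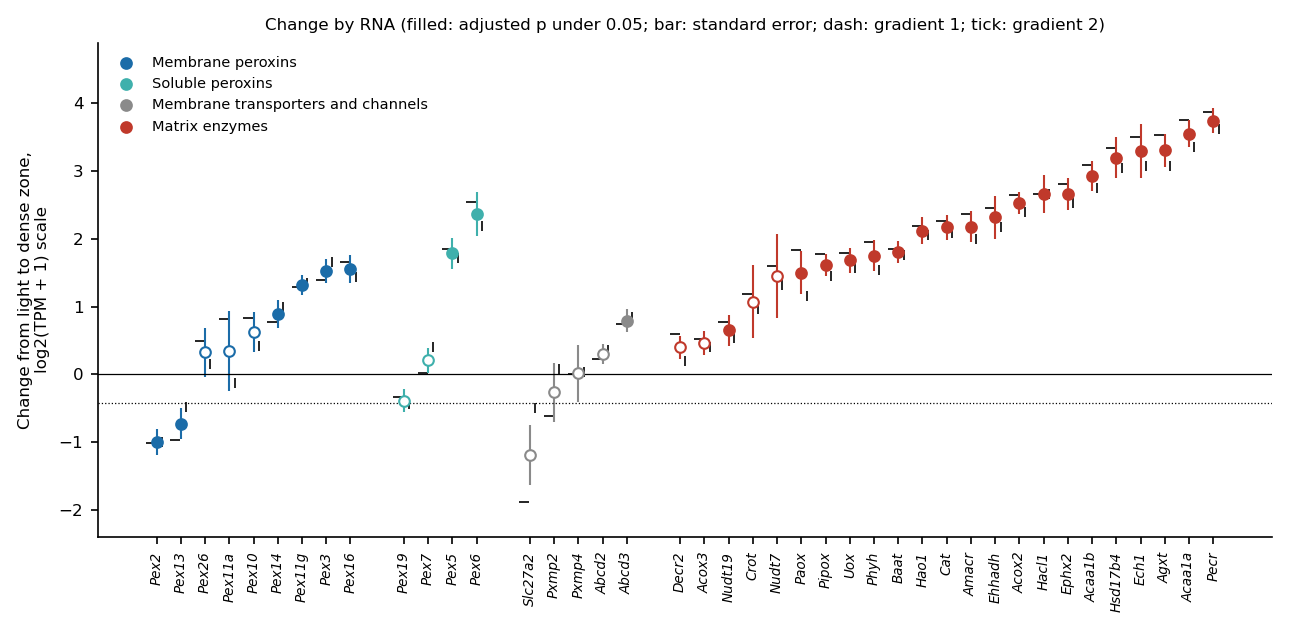
Change of 41 of the RNAs from the light to the dense zone on the log2(TPM + 1) scale, by class and ordered within class, where circles are the mean of 2 gradients with its standard error, filled where the limma adjusted p is under 0.05, dashes mark gradient 1, ticks mark gradient 2, and the dotted line is the median of all 11754 tested genes (-0.43). The 23 matrix enzymes all lie above 0, from 0.40 for Decr2 to 3.75 for Pecr, while the 9 membrane peroxins shown run from Pex2, the lowest, to 1.56 for Pex16.

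The 2 largest rises of the set were those of beta-oxidation enzymes. This pathway shortens acyl chains by repeated oxidation, hydration, oxidation and thiolysis. From light to dense 8 of its 11 members rose (median 2.53), where 22.3% of all tested genes rose and 39.6% fell. Pecr, a reductase of enoyl-CoA esters, had 52.4, 86.7 and 167 TPM in the light, 359.98, 531 and 721 TPM in the middle and 1116, 1214 and 1392 TPM in the dense libraries (lowest, median and highest of 8). The 3 zones did not overlap, and the rise from light to dense was 3.75 ± 0.19 (SE, limma adjusted p = 0.000301), the largest of all members. Acaa1a, a thiolase that performs the last step, went from 36.3, 74.0 and 116 TPM to 217, 318 and 517 TPM and then 648, 833 and 1048 TPM, again without overlap, a rise of 3.56 ± 0.19 (SE, limma adjusted p = 0.000301). Its near-identical copy Acaa1b rose by 2.92 ± 0.22 (SE, limma adjusted p = 0.000354).

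The bifunctional enzymes, which hydrate and dehydrogenate the shortened chain in opposite stereochemistry, both rose. Hsd17b4 had 80.0, 112 and 211 TPM in the light, 326, 509.9 and 825 TPM in the middle and 802, 1138 and 1512 TPM in the dense zone, a rise of 3.20 ± 0.30 (SE, limma adjusted p = 0.000592). Ehhadh went from 126, 169.5 and 224 TPM to 293, 425 and 675 TPM and 620.4, 930.1 and 1173 TPM, a rise of 2.32 ± 0.32 (SE, limma adjusted p = 0.00175). For both, every dense library lay above every light library. The ranges of their middle and dense zones met over both gradients, but within each gradient every dense library was above every middle one. Ech1, which isomerises dienoyl-CoA esters, rose by 3.29 ± 0.40 (SE, limma adjusted p = 0.00118). Acox2, the oxidase of bile acid intermediates, rose by 2.53 ± 0.16 (SE, limma adjusted p = 0.000301), and Amacr, the racemase of branched acyl-CoAs, by 2.18 ± 0.23 (SE, limma adjusted p = 0.000772).

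The 3 beta-oxidation RNAs that were not called were Decr2, Acox3 and Crot. Decr2, a dienoyl-CoA reductase, was highest in the middle zone, at 461, 575 and 643 TPM against 215, 309.97 and 315 TPM in the light and 273, 386 and 517 TPM in the dense zone. All of its middle libraries were above its light ones, with a rise of 0.95 ± 0.17 (SE, limma adjusted p = 0.00674), and its light and dense zones overlapped, with a difference of 0.40 ± 0.17 (SE, limma adjusted p = 0.082). Acox3, the oxidase of pristanoyl-CoA, was the lowest matrix enzyme RNA, with 12.6, 13.9 and 20.0 TPM in the light and 16.7, 20.5 and 24.1 TPM in the dense zone. These zones differed by 0.46 ± 0.18 (SE, limma adjusted p = 0.0666). Crot, which passes medium chains to carnitine for export to mitochondria, had 228, 389 and 671 TPM in the light and 506, 899 and 1497 TPM in the dense zone. Its zones overlapped over both gradients but not within either. They held 411 to 671 and 1091 to 1497 TPM in gradient 1, and 228 to 367 and 506 to 708 TPM in gradient 2. The difference was 1.08 ± 0.53 (SE, limma adjusted p = 0.127). With the gradient as a block all 3 were called higher in the dense zone (limma adjusted p = 0.0367, 0.00814 and 0.000529). The changes of Crot were 1.18 in gradient 1 and 0.97 in gradient 2. Decr2 was also called with shifted outer zones, with the numbers of gradient 2 moved up by 1 and without fraction 19 of gradient 2, and Acox3 after quantile normalization and without fraction 5 of gradient 1.

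Alpha-oxidation, which removes 1 carbon from phytanic acid, was represented by 2 enzymes. Phyh, the phytanoyl-CoA hydroxylase, had 638, 914 and 1395 TPM in the light, 2769, 3521 and 4623 TPM in the middle and 2569, 3067 and 4061 TPM in the dense zone. It rose by 1.90 ± 0.23 (SE, limma adjusted p = 0.00219) from light to middle, and the difference from middle to dense was -0.14 ± 0.23 (SE, limma adjusted p = 0.693). Hacl1, the lyase that follows it, rose by 2.66 ± 0.28 (SE, limma adjusted p = 0.000744) from light to dense and differed by 0.83 and 0.87 from middle to dense in the 2 gradients (limma adjusted p = 0.0692, and 0.0017 with the gradient as a block).

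All 6 oxidases, catalase and aminotransferase rose from light to dense (median 1.90), where 22.3% of all tested genes rose and 39.6% fell. Cat, which decomposes hydrogen peroxide, stood at 1016, 1449.6 and 2018 TPM in the light, 2495, 3255 and 4182 TPM in the middle and 5599, 6535 and 7478 TPM in the dense zone. No zone overlapped another, and the rises were 2.17 ± 0.19 (SE, limma adjusted p = 0.000479) from light to dense and 1.01 ± 0.19 (SE, limma adjusted p = 0.014) from middle to dense, the latter not called after quantile normalization. Uox, the urate oxidase, had 1090.01, 1406 and 2133 TPM in the light and 1692, 1949 and 2502 TPM in the middle zone, which overlapped and differed by 0.46 ± 0.18 (SE, limma adjusted p = 0.084), a difference called with the gradient as a block (limma adjusted p = 0.0248) and with shifted outer zones. Its dense libraries (3827, 4743 and 5371 TPM) were all higher, by 1.22 ± 0.18 (SE, limma adjusted p = 0.00871) over the middle zone. Hao1, which oxidises glycolate to glyoxylate, went from 113, 154 and 222 TPM to 196, 275 and 409 TPM and 521, 697 and 822 TPM, a rise of 2.12 ± 0.20 (SE, limma adjusted p = 0.000559). Agxt, which transaminates that glyoxylate, went from 113, 162 and 367 TPM to 656, 1021 and 1459 TPM and 1291, 1751 and 2409.8 TPM, with a larger rise of 3.31 ± 0.25 (SE, limma adjusted p = 0.000353). By step, Hao1 rose by 0.85 from light to middle and 1.27 from middle to dense, and Agxt rose by 2.47 and then differed by 0.84 (limma adjusted p = 0.0526, and 0.00618 with the gradient as a block). That last step of Agxt was also called with a mean of at least 10 TPM, after rescaling without the 50 most abundant genes, with shifted outer zones, and without fraction 12 or 13 of gradient 1 or fraction 19 of gradient 2. The difference between the enzymes was not tested. Pipox, which oxidises pipecolate and sarcosine, rose by 1.61 ± 0.16 (SE, limma adjusted p = 0.000657) and the polyamine oxidase Paox by 1.50 ± 0.32 (SE, limma adjusted p = 0.00849).

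Of the hydrolases and conjugating enzymes, Ephx2, the soluble epoxide hydrolase, rose by 2.67 ± 0.24 (SE, limma adjusted p = 0.000506) and Baat, which joins bile acids to taurine or glycine, by 1.81 ± 0.16 (SE, limma adjusted p = 0.000508). Nudt7 and Nudt19 are CoA diphosphatases. Nudt7 differed by 1.45 ± 0.62 (SE, limma adjusted p = 0.0847) and was called with the gradient as a block (limma adjusted p = 0.000247) and with the numbers of gradient 2 moved up by 1. Nudt19 rose by 0.65 ± 0.22 (SE, limma adjusted p = 0.0464), a call that was lost after quantile normalization, after rescaling without the 50 most abundant genes, with narrow zones and with the numbers of gradient 2 moved down by 1, and also without fraction 4, 13, 17 or 18 of gradient 1 or fraction 11 of gradient 2.

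**Figure D2:**
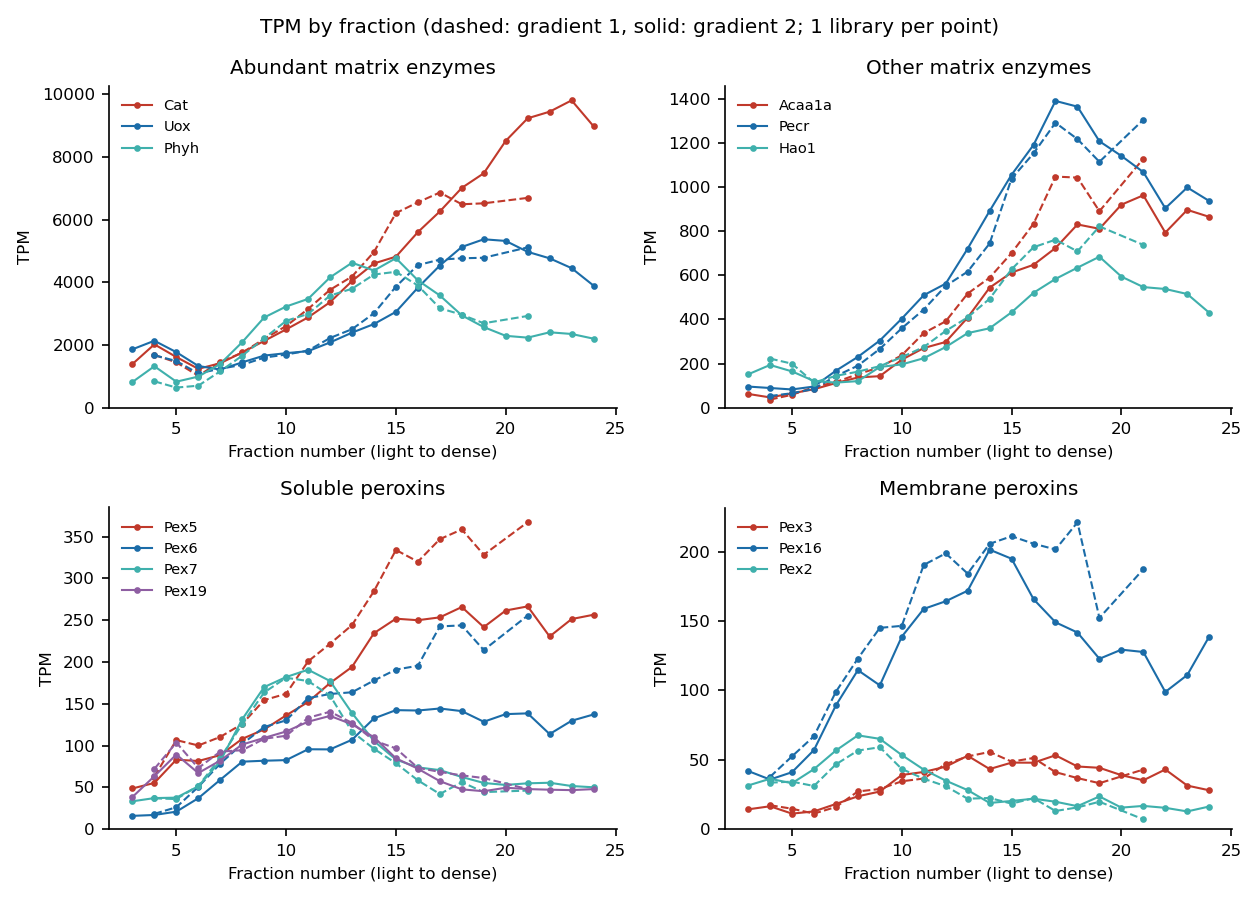
TPM of 13 RNAs in every library against the fraction number, from light to dense, with gradient 1 dashed and gradient 2 solid. Cat and Acaa1a climb toward the dense end, Pecr and Hao1 climb to fractions 17 to 19 and are lower beyond them in gradient 2, Phyh levels off or turns down beyond fraction 15, Pex5 and Pex6 climb and then stay high, Pex7 and Pex19 peak between fractions 10 and 12, and Pex2 peaks at fraction 8 or 9.

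The soluble peroxins fell into 2 patterns. Pex5, the PTS1 receptor, had 55.3, 85.8 and 110.3 TPM in the light, 136, 184 and 244 TPM in the middle and 242, 293 and 359 TPM in the dense zone. Every middle library was above the light libraries, and the rise from light to dense was 1.79 ± 0.23 (SE, limma adjusted p = 0.00133). Pex6, an ATPase of the export machinery, went from 16.9, 31.5 and 78.4 TPM to 82.5, 119 and 164 TPM and 128, 169.9 and 244 TPM, a rise of 2.37 ± 0.33 (SE, limma adjusted p = 0.00182) and the largest of any peroxin.

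Pex7, the PTS2 receptor, peaked in the middle of the gradient. It had 35.9, 44.4 and 85.0 TPM in the light, 117, 177 and 191 TPM in the middle and 42.0, 57.2 and 73.8 TPM in the dense zone, so that the middle libraries stood above all others. It rose by 1.71 ± 0.18 (SE, limma adjusted p = 0.00179) from light to middle and fell by 1.51 ± 0.18 (SE, limma adjusted p = 0.00703) from middle to dense, and the light and dense zones overlapped. Pex19, the carrier of membrane proteins, was also highest in the middle, with 63.3, 77.6 and 104 TPM, 112, 128 and 140.5 TPM and 45.3, 62.7 and 73.3 TPM. It rose by 0.67 ± 0.17 (SE, limma adjusted p = 0.022) and then fell by 1.06 ± 0.17 (SE, limma adjusted p = 0.00997), and from light to dense it was called lower with the gradient as a block (limma adjusted p = 0.0202, against 0.0926 without it). The 3 enzymes with a PTS2, the signal read by Pex7, rose from light to dense as given above, with changes of 3.56, 2.92 and 1.75, against 0.21 for Pex7 itself. By coding end, the median change from light to dense was 1.65 for the 10 enzymes with the strict PTS1, 2.92 for the 3 with the PTS2 and 2.18 for the 10 with neither.

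Among the membrane peroxins, those of membrane assembly rose. Pex3, the membrane receptor for Pex19, had 11.1, 15.3 and 18.1 TPM in the light, 34.4, 43.1 and 52.9 TPM in the middle and 33.1, 44.6 and 53.2 TPM in the dense zone. The middle and dense zones overlapped and stood wholly above the light zone, with a rise of 1.53 ± 0.17 (SE, limma adjusted p = 0.000921). Pex16, which recruits Pex3, had 35.7, 54.7 and 99.0 TPM, 139, 168 and 199 TPM and 123, 159 and 221 TPM, with the middle and dense zones again above the light zone, and rose by 1.56 ± 0.20 (SE, limma adjusted p = 0.00146). The differences from middle to dense were 0.02 and -0.01 and were not called.

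The docking partners Pex14 and Pex13 changed in opposite directions. Pex14 had 26.6, 38.4 and 60.8 TPM in the light, 60.6, 80.5 and 93.3 TPM in the middle and 66.1, 75.9 and 92.4 TPM in the dense zone, with every dense library above every light one, and rose by 0.89 ± 0.21 (SE, limma adjusted p = 0.0121). Pex13 had 20.3, 27.0 and 39.2 TPM, 18.8, 23.4 and 33.4 TPM and 12.6, 16.1 and 21.6 TPM, and fell by 0.73 ± 0.22 (SE, limma adjusted p = 0.0323). Its light and dense zones overlapped over both gradients but not within either. After quantile normalization the fall of Pex13 was not called.

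Pex2 and Pex10 are RING ligases. Pex2 had 31.0, 35.2 and 56.6 TPM in the light, 21.9, 35.6 and 53.4 TPM in the middle and 13.0, 19.7 and 23.5 TPM in the dense zone. Its light and middle zones overlapped, its dense libraries lay below all light libraries, and it fell by 1.00 ± 0.19 (SE, limma adjusted p = 0.00595), the largest called fall of the set. Pex10 was low, with 4.35, 5.56 and 7.09 TPM in the light and 6.06, 9.52 and 13.1 TPM in the dense zone, and differed by 0.63 ± 0.30 (SE, limma adjusted p = 0.117). With the gradient as a block, Pex10 was called higher (limma adjusted p = 0.0127). Pex26, the membrane anchor of Pex6, was not called in any comparison without the block and differed by 0.32 ± 0.36 (SE, limma adjusted p = 0.454) from light to dense. With the block it was called higher in the dense than in the middle zone (limma adjusted p = 0.0164).

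Pex11g, of the division family, rose by 1.32 ± 0.15 (SE, limma adjusted p = 0.00099) from light to dense and by 0.57 ± 0.15 (SE, limma adjusted p = 0.0391) from middle to dense, the 1 membrane peroxin to do so in the second comparison, a call lost with narrow zones, with the numbers of gradient 2 moved by 1 in either direction, and without fraction 4, 7, 10 or 11 of gradient 1 or fraction 4 or 5 of gradient 2. Pex11a was spread over 54.3, 124 and 247 TPM, 124, 201 and 279 TPM and 74.4, 163 and 294 TPM. Its gradients disagreed, with a change from light to dense of 0.82 in gradient 1 and -0.13 in gradient 2, and its difference of 0.35 ± 0.59 (SE, limma adjusted p = 0.63) was within its error.

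Abcd3, which carries branched and long acyl chains into the organelle, rose from light to dense. It had 180.3, 292 and 401 TPM in the light, 286, 363 and 457 TPM in the middle and 405, 494 and 553 TPM in the dense zone, every dense library lay above every light one, and the rise was 0.79 ± 0.17 (SE, limma adjusted p = 0.00925). That call was lost after quantile normalization. Its relative Abcd2 differed by 0.30 ± 0.15 (SE, limma adjusted p = 0.128), and was called higher with the gradient as a block (limma adjusted p = 0.0325) and after quantile normalization. The membrane protein Pxmp4 differed by 0.02 ± 0.42 (SE, limma adjusted p = 0.974). Pxmp2, a channel protein, was highest in the middle, with 141, 190.2 and 300.3 TPM, 228, 379 and 562 TPM and 87.4, 167 and 247 TPM. Over both gradients the zones overlapped, but within each gradient the middle libraries stood above all others, at 228 to 330.01 TPM against 141 to 225 TPM in the light and 87.4 to 128 TPM in the dense zone of gradient 1, and 428 to 562, 179 to 300.3 and 205 to 247 TPM in gradient 2. The changes were 0.99 ± 0.43 (SE, limma adjusted p = 0.108) from light to middle and -1.25 ± 0.43 (SE, limma adjusted p = 0.082) from middle to dense. With the gradient as a block, Pxmp2 was called higher in the first (limma adjusted p = 0.00539) and lower in the second (limma adjusted p = 0.00342).

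Slc27a2, an acyl-CoA synthetase known from both the peroxisomal and the endoplasmic reticulum (ER) membrane, was highest in the light zone. It had 262, 287 and 344 TPM in the light, 67.1, 106 and 157 TPM in the middle and 70.8, 126 and 274 TPM in the dense zone. All light libraries were above all middle ones, and it fell by 1.51 ± 0.44 (SE, limma adjusted p = 0.0347) from light to middle, the only member to fall in that comparison. Its change from light to dense was -1.88 in gradient 1 and -0.49 in gradient 2, and the mean of these was -1.19 ± 0.44 (SE, limma adjusted p = 0.0586). With the gradient as a block it was called lower (limma adjusted p = 0.019), and it was also called after quantile normalization, with shifted outer zones, with the numbers of gradient 2 moved up by 1, and without fraction 7 of gradient 1 or fraction 18 or 19 of gradient 2. In fractions 20 to 24 of gradient 2 it held 296 to 374 TPM, while fraction 21 of gradient 1 held 78.3 TPM.

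Membrane peroxins and matrix enzymes were then compared as classes, which was the comparison the set was drawn up for. The median change from light to dense was 2.17 for matrix enzymes and 0.35 for membrane peroxins, a difference of 1.82, and it was 1.49 from the medians of gradient 1 and 1.90 from those of gradient 2. Of the 23 matrix enzymes, 17 changed by more than every membrane peroxin. From light to middle the difference of medians was 1.00 (0.97 and 1.03 in the 2 gradients), and from middle to dense it was 1.03 (0.98 and 1.01). With 2 gradients no exact test of such a value can give a two-sided p below 0.5, so none is given, and genes of a class are not replicates. The classes also differed in level, with a median TPM over the zone libraries of 538 for matrix enzymes and 35.2 for membrane peroxins, against 15.7 for all tested genes.

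The steps from light to middle and from middle to dense were also counted by class. From light to middle, 18 of 23 matrix enzymes rose and 0 fell (median 1.61), where 23.5% of all genes rose and 24.1% fell, and after quantile normalization the rises of Ehhadh, Hao1, Pipox and Baat were not called, nor were those of Hao1 and Pipox with the numbers of gradient 2 moved up by 1. From middle to dense, 11 rose and 0 fell (median 0.96), where 4.79% of all genes rose and 22.5% fell, and with the gradient as a block 19 rose and 1 (Decr2) fell (14.1 and 39.3% of all genes). Over the other settings the count of rises ran from 8 to 19, and with 1 library left out from 9 to 14. Calls were lost for Acox2, Hsd17b4 and Acaa1b with narrow zones, and for Cat and Acaa1b after quantile normalization. With shifted outer zones the call of Hsd17b4 was lost. With the numbers of gradient 2 moved by 1, Hsd17b4 and Ephx2 (up) or Acox2 and Acaa1b (down) were lost. Membrane peroxins had a gain from light to middle, with 5 of 11 rising and 0 falling (median 0.61), and then 1 rose and 2 fell from middle to dense (median -0.08, but 0.18 after quantile normalization and 0.0058 after rescaling without the 50 most abundant genes). The fall of Pex2 from middle to dense was not called after quantile normalization or with the numbers of gradient 2 moved down by 1, which left 1 membrane peroxin lower. Pex3, Pex16, Pex14 and Pex11g were among those that rose first, and Pex11g, like Pex19, was not called with the numbers of gradient 2 moved down by 1. Of the soluble peroxins, 4 of 5 rose from light to middle, and 0 rose and 2 fell from middle to dense. Over all 16 peroxins the count from middle to dense was 1 higher and 4 lower, and 5 higher and 5 lower with the gradient as a block, with Pex5, Pex6 and Pex26 among the higher and Pex13 among the lower. Of the transporters and channels, 0 rose from light to middle without the block, and 4 of 5 rose with it (37.2% of all genes rose and 35.0% fell).

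**Figure D3:**
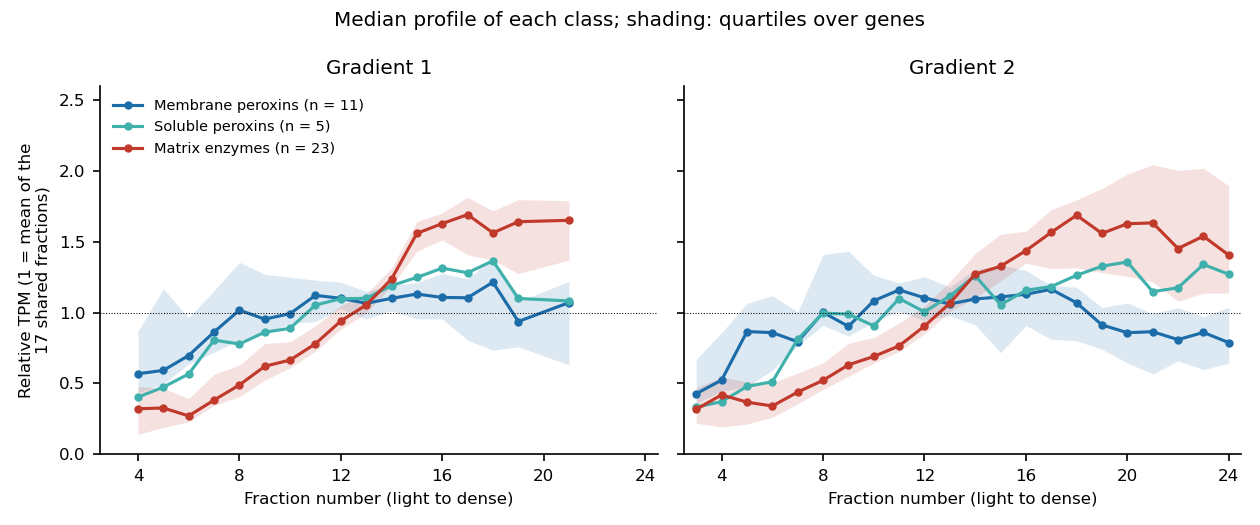
Median relative TPM of membrane peroxins, soluble peroxins and matrix enzymes against the fraction number in each gradient, where 1 is a gene's mean over the 17 shared fractions and shading gives the quartiles over genes for membrane peroxins and matrix enzymes. The matrix enzymes rise from 0.27 at fraction 6 to 1.69 at fraction 17 in gradient 1 and from 0.34 at fraction 6 to 1.69 at fraction 18 in gradient 2 among shared fractions, while the membrane peroxins go from 0.57 and 0.52 at fraction 4 to at most 1.21 and 1.16.

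A measure without zone borders gave the same order of classes. The center of sedimentation of an RNA, its mean fraction number weighted by TPM over the 17 shared fractions, had a median of 14.7 ± 0.03 (SD, n = 2 gradients) for matrix enzymes, 13.0 ± 0.12 for soluble peroxins, 12.5 ± 0.43 for membrane peroxins and 12.0 ± 0.06 for transporters and channels, against 11.3 for all tested genes. In gradients 1 and 2 the medians were 13.1 and 13.0 for soluble peroxins, 12.8 and 12.2 for membrane peroxins and 12.0 and 12.1 for transporters and channels, which is the same order in both, and these differences were not tested. The matrix median lay 2.15 ± 0.46 fractions (SD, n = 2) beyond that of the membrane peroxins. The densest members were Acaa1a (15.7 ± 0.05), Pecr (15.5 ± 0.19) and Hsd17b4 (15.3 ± 0.03). The lightest were Pex2 (10.3 ± 0.09), Slc27a2 (10.5 ± 1.71) and Pex13 (10.8 ± 0.30), and Slc27a2 had the largest disagreement between gradients. The peroxins farthest toward the dense end were Pex6 (14.3 ± 0.23) and Pex5 (14.2 ± 0.12).

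**Figure D4:**
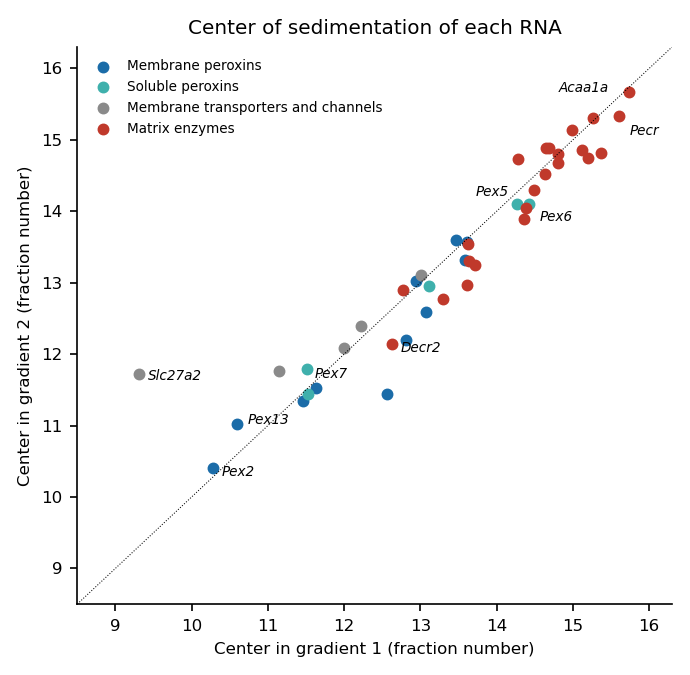
Center of sedimentation of each of the 44 RNAs in gradient 1 against gradient 2, in units of fraction number and colored by class, with a dotted line where they are equal. Most RNAs lie near the line, from 10.3 and 10.4 for Pex2 to 15.7 and 15.7 for Acaa1a, and Slc27a2 lies farthest from it, at 9.31 and 11.7.

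Profiles of the matrix enzymes were also alike in shape. The median Pearson's R between pairs of matrix enzymes over the 17 shared fractions was 0.922 in gradient 1 and 0.839 in gradient 2, while it was 0.144 and -0.014 between membrane peroxins and 0.067 and 0.085 between all tested genes. Between a matrix enzyme and a membrane peroxin the median was 0.523 and 0.177, and between a matrix enzyme and a soluble peroxin 0.796 and 0.679. Among soluble peroxins it was -0.062 and 0.087, and among transporters and channels -0.013 and -0.085. These values are descriptions, since the fractions of a gradient share a homogenate and neighboring fractions are not independent. Pex5 was the peroxin most like the matrix enzymes, with a median R with them of 0.971 and 0.910 in the 2 gradients, followed in gradient 1 by Pex6 (0.929 and 0.876) and Pex11g (0.925 and 0.865). Pex13 (-0.866 and -0.811) and Pex2 (-0.762 and -0.737) ran opposite to them. Within the matrix enzymes, Decr2 was least like the others (0.387 and -0.016), followed by Phyh in gradient 1 (0.741 and 0.500) and by Paox in gradient 2 (0.749 and 0.432).

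**Figure D5:**
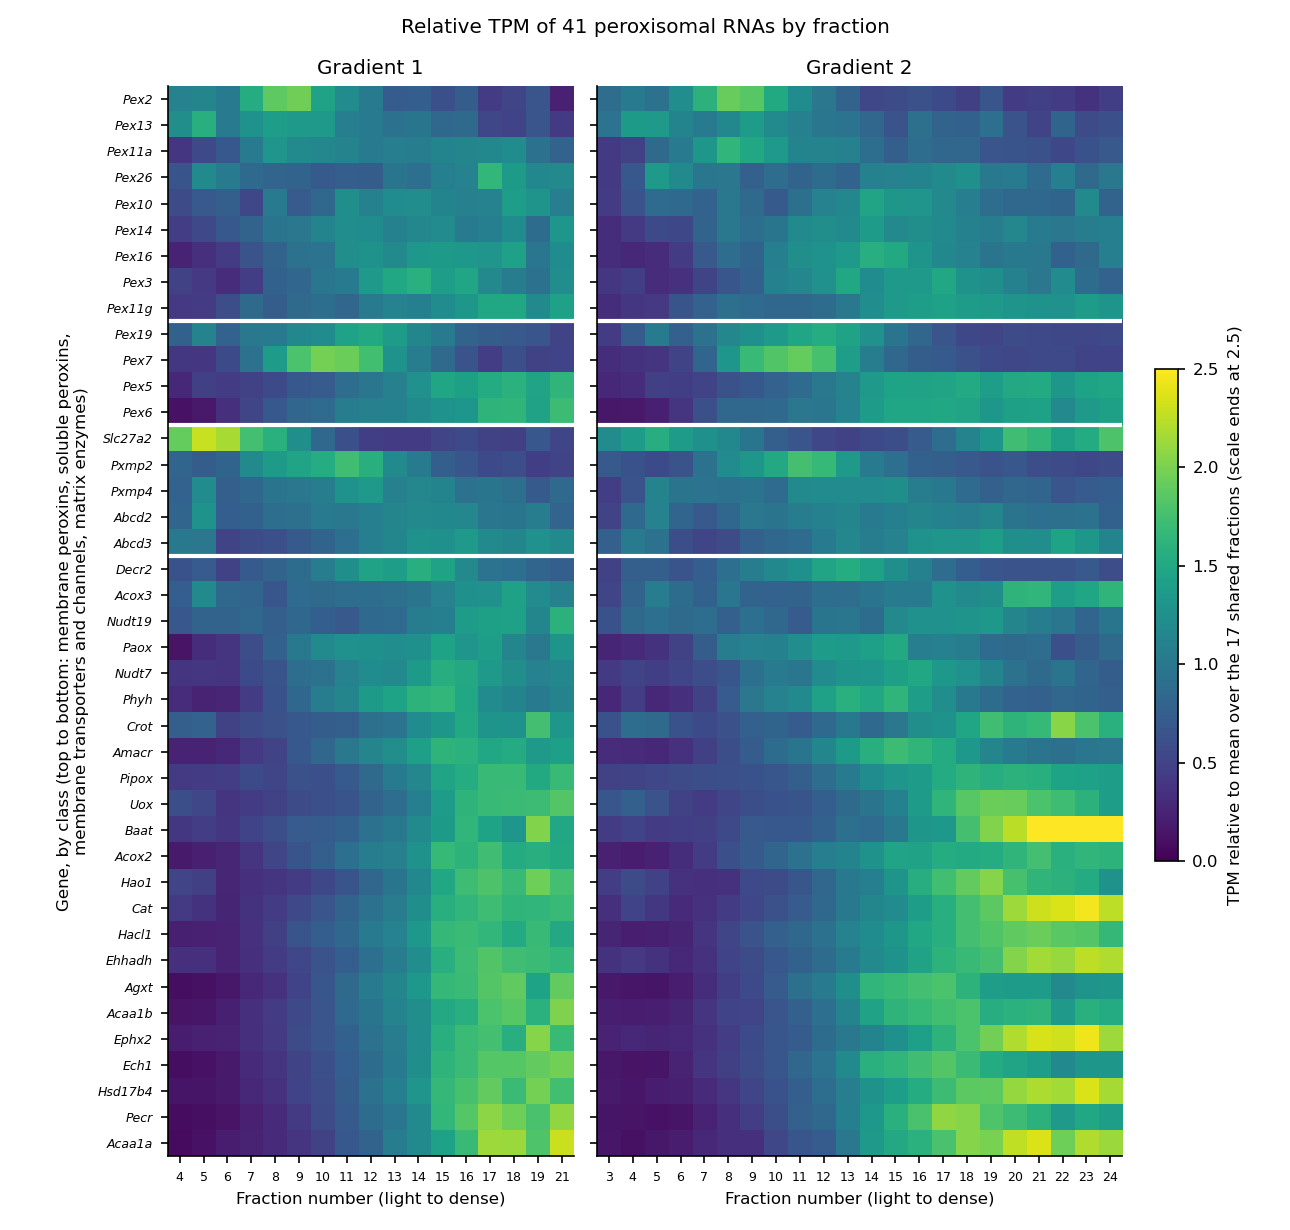
Relative TPM of 41 of the RNAs (rows, by class and ordered by center of sedimentation) in each fraction (columns, light to dense) of both gradients, where 1 is a gene's mean over the 17 shared fractions and the color scale ends at 2.5. Most matrix enzymes are dark on the left and bright on the right in both gradients, Pex7 is brightest in fractions 10 and 11, Pxmp2 in fractions 11 and 12, Pex2 in fractions 8 and 9, and Baat and Cat are brightest in fractions 20 to 24 of gradient 2.

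The densest fractions lay outside the zones and came mostly from gradient 2. Cat had 8512, 9233, 9443, 9805 and 8978 TPM in fractions 20 to 24 of gradient 2, all above the highest dense library of that gradient (7478 TPM). In fraction 21 of gradient 1 it had 6693 TPM, within the range of the dense zone there (6489 to 6864 TPM). Baat had 725 to 885 TPM in those fractions of gradient 2, above its highest dense value of 658 TPM, and 438 TPM in fraction 21 of gradient 1, within 385 to 593 TPM. Hsd17b4 did likewise, with 1092 to 1222 TPM above 974 TPM in gradient 2 and 1336 TPM within 1301 to 1512 TPM in gradient 1. Agxt and Ech1 were lower than every dense library of gradient 2, with 1083 to 1267 TPM below 1291 TPM for Agxt and 851 to 1046 TPM below 1101 TPM for Ech1. In fraction 21 of gradient 1 they had 2417 and 2501 TPM, above their highest dense values there (2409.8 and 2424 TPM). These fractions have 1 library each and no test.

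Other peroxisomal proteins, a list of 28 genes outside the set, were read for comparison. From light to dense 14 rose and 3 fell, with a median change of 0.92, where 22.3% of all tested genes rose and 39.6% fell. The largest called changes were those of Dhrs4 (2.92), Lonp2, the peroxisomal protease (2.45), Acnat1, an acyltransferase (-2.33), and Gstk1 (2.29). Gnpat and Agps, which begin ether lipid synthesis in the peroxisome, fell by 1.05 and 0.91 on the log2 scale. With the same 39.6% of all tested genes lower, all 3 transcription factors and coactivators listed as regulators of peroxisomal genes fell, namely Rxra (-1.57), Ppara (-0.76) and Ppargc1a (-0.66). Of the division proteins shared with mitochondria, Mff (-1.83) and Fis1 (-0.66) fell among 3 tested of 4 listed.

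Mitochondria also oxidise fatty acids, and the RNAs of their enzymes were read beside those of the matrix enzymes. Of 21 such genes, 20 rose from light to dense and 0 fell, with a median of 2.52. From light to middle 17 rose (median 1.68), where 23.5% of all tested genes rose and 24.1% fell. Pairs with like reactions in the 2 organelles gave 3.56 for Acaa1a and 3.32 for its mitochondrial counterpart Acaa2, 2.32 for Ehhadh and 2.59 for Hadha, 0.40 for Decr2 and 1.98 for Decr1, and 1.08 for Crot and 2.76 for Cpt2. The protein import machinery of mitochondria, listed as the counterpart of the peroxins, had 5 of 20 higher and 9 lower from light to dense (median -0.59), near the shares of all tested genes (22.3 and 39.6%), and 0 higher and 13 lower from middle to dense (median -1.19), where the shares were 4.79 and 22.5%. A list of ER membrane and lumen proteins had 1 of 20 higher and 15 lower from light to dense (median -1.55), led by Canx (-2.90). The differences between these lists and the peroxisomal classes were not tested.

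Length and overlapping genes were examined because both can bear on a level or a position. The coding sequence had a median of 1263 bases for matrix enzymes, 975 for membrane peroxins and 1347 for all genes with a value (10817 of 11754, or 92.0%). Across genes, Spearman's rho between coding length and the change from light to dense was 0.096 for all genes, 0.356 for the 44 members and 0.165 for the matrix enzymes. With the length of the whole transcript it had the other sign, at -0.184, -0.327 and -0.553. Genes are not independent replicates. Exons of Pex3, Pex13, Pex16, Acaa1a, Hacl1 and Paox share bases with an opposite-strand gene that is also in the tables (Adat2, Pus10, Large2, Myd88, Btd and Echs1, in that order). The shared bases number 249, 2, 127, 290, 108 and 142 in the same order. Libraries were stranded, but the strand setting of the quantification was not given in the sources used here. The TPM of these RNAs are uncertain to that extent. Hacl1 also overlaps a gene on its own strand (1540 shared exon bases).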

How the data were processed

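RNA was measured in 39 libraries of fractions from 2 mouse liver gradients. Per the labels and the study's methods, the authors made stranded libraries after ribosomal RNA depletion, demultiplexed reads with bcl2fastq 2.16.0.10 (as listed in the submitters' processing notes), pseudo-aligned them with Kallisto to an mm10 RefSeq index, and deposited 1 table of TPM by gene symbol for each gradient. The version and strand setting of Kallisto and the summing to genes were not given in the sources used here. Value columns without a matching sample numbered 0. TPM hold no counts, so depth is unknown, no counting interval can be given, and precision is known only from the spread between gradients.

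Genes in both tables with a mean of at least 1 TPM in the 24 zone libraries (11754) were fitted in 1 model of 6 columns (zone by gradient means of log2(TPM + 1)) with limma 3.58.1 (R 4.3.3), eBayes with a trend, two-sided, Benjamini-Hochberg adjustment over all of them. A pseudocount of 1 understates changes of low genes. Other steps used Python 3.11.15 and pandas 2.3.3. On simulated data for the comparison of dense with light zones (11754 genes, 200 changed), 8, 62, 88 and 92% of changes of 1, 2, 3 and 4 on the log2 scale were recovered, with 7 false calls. The simulation drew noise without the pairing of zones, and the real comparison called 7274 genes. These shares therefore do not give the recovery in the real data. Zones of 1 gradient come from 1 mouse, which pairs them: the deviations of gradient 1 from the mean of the gradients correlated across genes between light and middle (r = 0.665), light and dense (r = 0.540) and middle and dense zones (r = 0.798). The fit with the gradient as a block is therefore given beside a printed comparison where it changed the call.

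The members, classes and gene lists were chosen with earlier results of these data known, so counts over them are descriptions. Members may be named, with full zone values for those of a preset list and for the 3 largest called rises and falls from light to dense (only 2 falls were called there), and up to 4 examples per other list by size of called change. Results of single members that are not reported here still count in the class values. Gnpat, Agps, Hadha, Decr1 and Cpt2 were named beyond this after their values were seen. Import signals were read as codons from GENCODE M21 transcripts, since no protein table was used here, and overlaps and lengths from its annotation. Sequence from chromosome 18 is not printed.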

Additional observations from a re-analysis of the deposited data

How the results depend on the processing

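For the 44 members in 3 comparisons, 1314 values under other settings kept direction and side of the threshold in 1226 cases, while 33 lost a call and 55 gained one, and leaving out 1 library at a time (3168 values) kept 3135, lost 22 and gained 11. No called change turned direction. Sign changes occurred in 33 and 32 of these values, all of them uncalled.

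With the gradient as a block (replicate block, the pairing by mouse), members lower in the dense than the light zone went from 2 to 5 and peroxins lower from 2 to 4. From middle to dense, members went to 25 higher and 8 lower, matrix enzymes to 19 higher and 1 lower, and peroxins to 5 higher. No call was lost under the block. After quantile normalization, 1 peroxin was lower in the dense zone. Other changes from middle to dense were 1 matrix enzyme lower with a mean of at least 10 TPM or narrow zones, and 2 peroxins higher after rescaling without the 50 most abundant genes but 0 with narrow zones or with the numbers of gradient 2 moved by 1 in either direction. Matrix enzymes higher in that comparison ran from 8 to 19 over the settings. By the same limma fit, the number of called genes from middle to dense went from 3208 to 1940 with those numbers moved down by 1 and to 6275 with the block, and from light to middle from 5589 to 8478 with the block.

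The difference between the matrix and membrane peroxin medians stayed above 0 in every setting run. From light to dense it was 1.40 after quantile normalization and 1.52 with gradient 2 moved up by 1. From light to middle it was 0.87 with at least 10 TPM, 0.69 after quantile normalization, 1.06 with narrow zones, 0.91 with shifted zones and 0.71 with gradient 2 moved up by 1. From middle to dense it was 0.72, 1.00 and 0.90 after quantile normalization, with narrow and with shifted zones, and 0.97 with gradient 2 moved down by 1. Without 1 library or gradient at a time, its ranges were 1.49 to 1.96, 0.94 to 1.11 and 0.95 to 1.10.

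Centers after quantile normalization were 14.4 for matrix enzymes, 13.0 for membrane and 13.5 for soluble peroxins, with a difference between the first pair of 1.42. Without fraction 21 they were 13.9, 12.0 and 12.5, and 11.6 for transporters, and rescaling without the 50 most abundant genes gave 14.7 for matrix enzymes. In single gradients the difference was 1.82 and 2.48. Leaving out 1 library gave 0 to 1 peroxins higher, 9 to 14 matrix enzymes higher and 0 to 1 matrix enzymes lower from middle to dense. The cause of these changes was not tested. Depth is unknown, and 2 gradients limit every error. Small changes were rarely recovered on simulated data, where far fewer genes changed than were called here.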
